A study of Drosophila melanogaster with 3 samples.

Results

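The Notch pathway core genes are 9 of the 13945 protein-coding genes on the 6 main chromosome arms of Drosophila melanogaster. They were chosen by their known roles in the pathway. The receptor is N, the ligands are Dl and Ser, the modulators are kuz, neur and numb, and the transcription partners are Su(H), H and gro. All 9 were found in the annotation, Dl under its FlyBase identifier FBgn0000463, where it carries the symbol Delta.

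The data are a chromatin immunoprecipitation with sequencing (ChIP-seq) experiment on D, also called Dichaete, a Sox-family transcription factor. There is 1 group, of 3 biological replicates: whole embryos of mixed sex, aged 0 to 14 h, from a transgenic line that stably expresses D with green fluorescent protein at its C-terminus. Chromatin was immunoprecipitated through the tag with an anti-GFP antibody. The sources used here do not give what drives the transgene, whether the embryos also make untagged D, or whether the control embryos carried the transgene.

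Notch signalling passes between cells in contact. A ligand on one cell binds the receptor on its neighbour, the receptor is cut outside and then inside the membrane, and the freed intracellular part enters the nucleus, where it joins the DNA-binding protein Su(H) to switch on genes such as those of the Enhancer of split complex. Without signal, Su(H) is held in a repressing complex through H and gro. In the fly embryo this exchange decides which cells of the neuroectoderm become neuroblasts, a tissue in which D is also known to act. D and other SoxB proteins bind DNA through an HMG box that recognises short A/T-rich sites, whose core is written here as ACAAT on either strand.

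A gene is called bound when at least 1 summit of the IDR list lies between 2 kb before its start and 2 kb after its end, a stretch called its territory. The IDR list holds the peaks that the authors kept from the 3 replicates after thresholding on the irreproducible discovery rate, and it has 5047 summits on the dm6 build. A summit's signal value is the authors' own, on a scale that is not stated, and it ranges over the IDR list between 188 and 4534. A summit counts as recovered in a replicate when one of the 5047 highest summits of that replicate's own list lies within 200 bp of it. Replicate 1 stood apart, as it recovered 50% of the IDR summits, against 85.2% in replicate 2 and 83.9% in replicate 3. Results are therefore given with and without it. A territory can be shared by neighbouring genes, so a summit in it is not assigned to a target.

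The DNA under the highest summit of each bound member shows what D-GFP marked there, and for kuz both summits that all 3 replicates recovered are given with the highest of the upstream ones. Each line gives 81 bp centred on the summit, from the plus strand of the Release 6 genome (dm6), and none of these stretches overlaps an annotated exon. Capitals mark the Sox core in either orientation or, in numb, a looser Sox match. The looser match is CAAAG or CAATG after 2 bases that are each A or T, and it stands here in reverse complement, 9 bp from the summit.
N, chrX:3162461-3162541: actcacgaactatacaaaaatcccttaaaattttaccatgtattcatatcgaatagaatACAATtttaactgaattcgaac
kuz, chr2L:13548158-13548238: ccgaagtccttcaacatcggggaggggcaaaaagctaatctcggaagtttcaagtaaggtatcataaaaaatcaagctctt
kuz, chr2L:13571106-13571186: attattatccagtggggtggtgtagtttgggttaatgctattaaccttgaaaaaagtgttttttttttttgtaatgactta
kuz, chr2L:13613791-13613871: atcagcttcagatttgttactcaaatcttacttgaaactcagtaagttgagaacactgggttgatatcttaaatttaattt
neur, chr3R:9031966-9032046: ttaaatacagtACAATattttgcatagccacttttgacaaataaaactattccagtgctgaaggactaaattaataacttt
numb, chr2L:9449545-9449625: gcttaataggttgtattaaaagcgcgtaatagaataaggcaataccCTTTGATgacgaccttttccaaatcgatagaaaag
gro, chr3R:26042454-26042534: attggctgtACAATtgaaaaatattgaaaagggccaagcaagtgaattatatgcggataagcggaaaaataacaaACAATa
The Sox core is present beside the highest summits of N, neur and gro. It is in none of the kuz and numb stretches printed.

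D-GFP binding was found at the receptor gene, at all 3 modulators and at 1 transcription partner, and at neither ligand gene. The 5 bound members were N with 3 IDR summits, kuz with 5, neur with 2, numb with 1 and gro with 3, or 14 summits in all. The 4 unbound members were Dl, Ser, Su(H) and H. Among all 13945 genes, 30.4% were bound. The call for the ligands rests on the 2 kb flank: with 5 kb on each side Dl and Ser had 1 summit each, and by nearest start site Dl had 1 and Ser had 3, so that 7 members were bound under either rule. The 30.4% of all genes holds for 2 kb flanks, and no share of all genes is given for those rules. The median member summit had a signal of 294, against 310 over the IDR list, and 8 of the 14 fell in the lower 50% of that list. Of the 6 in the upper 50%, 2 were in N, 2 in neur and 1 each in numb and gro.

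**Figure D1:**
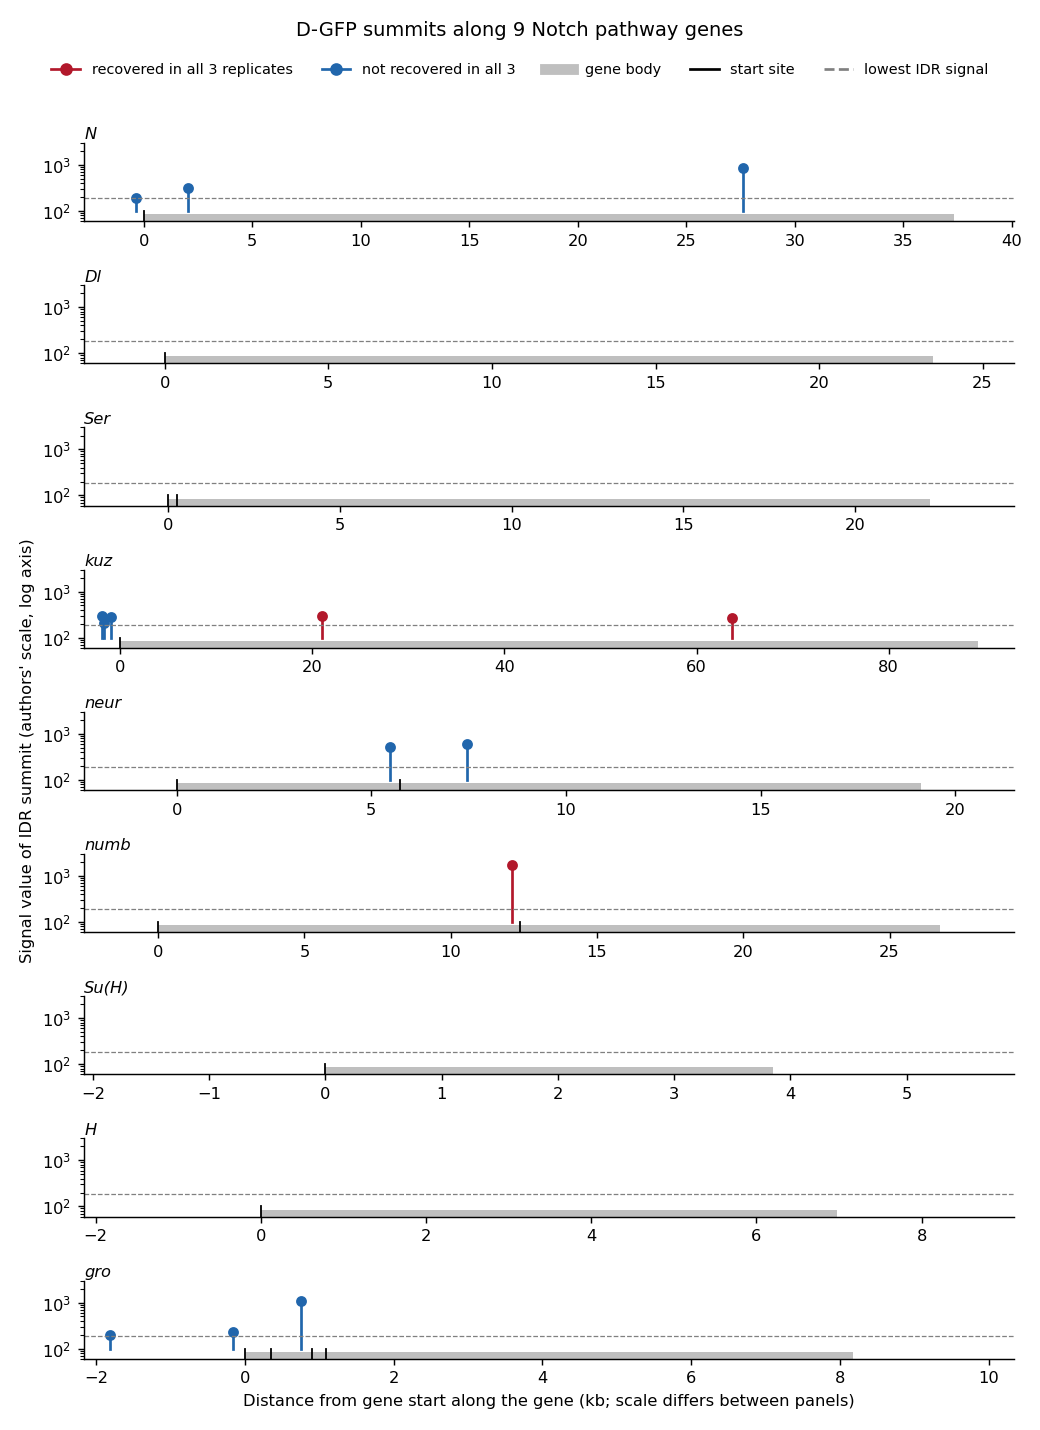
IDR summits along the 9 genes, with distance from the gene start in kb on the x axis (a different scale in each panel) and the signal value on a log y axis. Stems are summits, red where all 3 replicates recovered them, grey bars are gene bodies and black ticks are start sites. The 3 red summits are those of numb and 2 in introns of kuz, and 4 panels hold no summit.

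The members are long genes, and longer genes were bound more often in these data. Their median territory was 26.2 kb, against 6.17 kb over all genes. In territories of 35 kb or more, both members (N and kuz) were bound, and 63.8% of all such genes were. Of the 4 members with territories of 20 to 35 kb, neur and numb were bound and Dl and Ser were not, where 61.2% of all genes in that class were bound. Between 10 and 20 kb, gro was bound and H was not, against 46% of all genes, and under 10 kb the single member Su(H) was unbound, against 24.2%. Adding up the bound shares of the length classes the members belong to gives 4.89 genes, and 5 were bound. The number of bound members was thus close to that of genes of the same lengths. Over the 273 kb of member territories there were 0.513 summits per 10 kb, against 0.377 over the 6 arms. The arms also include DNA outside gene territories, so this comparison is not like for like.

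**Figure D2:**
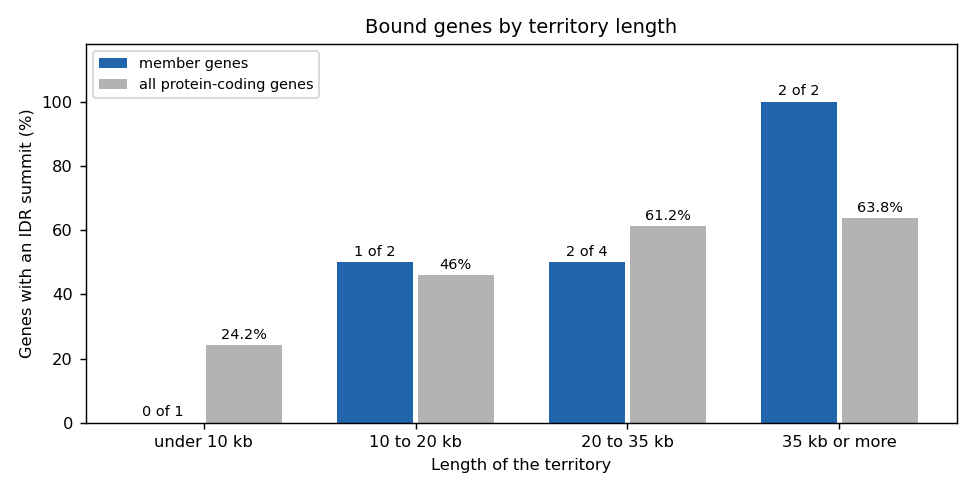
Percentage of genes with at least 1 IDR summit in the territory, by length of the territory, for the member genes (blue) and all protein-coding genes (grey). Bars start at 0 and the counts above the blue bars show how few members stand behind each, at most 4.

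N encodes the Notch receptor and lies on the X chromosome (3134870 to 3172221, plus strand), with a gene body of 37352 bp. Its highest summit, at chrX:3162365-3162721, was in intron 5, 27631 bp from the start site. It had a signal of 872 and rank 436 of the IDR list, which places it in the top 8.64%. Replicate 2 gave 334 there (rank 395 in its own list) and replicate 3 gave 319 (rank 538), whereas replicate 1 had no region within 200 bp and its nearest was 5040 bp away. The nearest start site of any gene to this summit was that of CG18508, 10639 bp off. A Sox core stood 21 bp from the summit.

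The other N summits were lower and close to the promoter. The one in intron 1, 2034 bp downstream of the start, had a signal of 311, with 136 in replicate 2 and 157 in replicate 3. Its DNA had the highest GC content of the 14, at 50.7%, and no Sox core. The one 348 bp upstream of the start had a signal of 193, near the floor of the list, with 74.0 in replicate 2 and 58.2 in replicate 3. That position is also in the territory of the neighbouring gene kirre, where it is annotated as 3' UTR. In replicate 3 it ranked 9534 and so was not recovered. No N summit had a match in replicate 1, whose list held a single region in the N territory, with a signal of 23.4 (rank 24936).

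Dl encodes the ligand Delta and lies on 3R (19302731 to 19326217, minus strand). No IDR summit lay in its territory of 27.5 kb. The list called on the 3 replicates together, which goes deeper than the IDR list, had 12 regions there. The highest, at chr3R:19325995-19326450, peaked 6 bp from the Dl start site with a signal of 117 (rank 9503 of about 30000). In replicate 2 this region had a signal of 88.2 and rank 3819, and in replicate 3 it had 76.5 and rank 6280, with no match in replicate 1. A region is thus listed at the Dl promoter in the lists of replicates 2 and 3, below the level of the IDR list. The IDR summits nearest to the gene were 2468 bp after its end, with a signal of 222, and 13202 bp before its start, with a signal of 196.

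Ser encodes Serrate, the other ligand (3R, 27172090 to 27194267, minus strand), and its territory of 26.2 kb also held no IDR summit. Its highest region in the list of 3 replicates together was in an intron, with a signal of 68.1 (rank 19931). Binding was stronger upstream, outside the territory. IDR summits lay 2798, 11008 and 14905 bp before the Ser start, with signals of 210, 256 and 432, and Ser was the gene with the nearest start site for each. The farthest of these ranked 1554 in the IDR list and was recovered in all 3 replicates, at rank 3913 in replicate 1, 1274 in replicate 2 and 1105 in replicate 3.

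The kuz gene encodes Kuzbanian, the ADAM metalloprotease that makes the outer cut in Notch. It is the longest member, 89273 bp on 2L (13550139 to 13639411, plus strand), and held the most summits. Of all genes, 1.13% had 5 or more summits, but few territories are as long as the 93.3 kb of kuz. Per 10 kb it had 0.536 summits, against 0.513 over all member territories and 0.377 over the 6 arms, which include DNA outside gene territories. Inside the gene body it had 2. All 5 kuz summits were weak, between 207 and 294. Its highest summit ranked 2865 among the highest summits of the 4239 bound genes, in the top 67.6%.

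The kuz summits fell into 2 groups by replicate. Those in intron 3 (21007 bp from the start) and intron 5 (63692 bp) were recovered in all 3 replicates. The intron 3 summit, at chr2L:13570918-13571373, had a signal of 294, with 73.8, 77.9 and 133 in replicates 1, 2 and 3. The intron 5 summit, at chr2L:13613603-13614058, had 262, with 81.1, 88.7 and 95.6. Their mean ranks over the 3 replicates were 2889 ± 1598 and 3167 ± 1634 (SD, n = 3), so the replicates placed them far apart in their own lists, and replicate 1 gave both their highest rank. Neither held a Sox core within 100 bp.

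The other 3 kuz summits were a cluster between 1001 and 1941 bp upstream of the kuz start, and none had a match in replicate 1, whose nearest region was 12481 bp away or more. They are also in the territory of the neighbouring gene B4, whose start site was closer, at 190 to 658 bp. Their signals were 294, 207 and 277 in order along the plus strand. The first and the second have overlapping intervals and match the same region in replicate 2, with a signal of 84.7. In replicate 3 the 3 summits had 156, 99.4 and 125. The third had a Sox core 3 bp from its summit, the closest of the 14.

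The neur gene encodes Neuralized, a ubiquitin ligase that acts on the ligands and promotes their endocytosis (3R, 9020348 to 9039471, minus strand). Both of its summits were in intron 1 and near a start site inside the gene that 2 of its 5 transcripts use. The one at chr3R:9031932-9032117, 1725 bp downstream of that start, had a signal of 613 and rank 861 (top 17.1%), with 206 in replicate 2 and 287 in replicate 3. The one 269 bp upstream of it had 504, with 218 in replicate 2 and 232 in replicate 3. Replicates 2 and 3 thus ranked the pair in opposite orders. Both held a Sox core, 27 bp from the higher summit and 12 bp from the lower one. The lower one stood in the DNA of lowest GC content among the 14, at 20.4%. Replicate 1 had no region in the neur territory, and its nearest was 41856 bp from either summit or farther.

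The numb gene encodes a membrane-associated inhibitor of Notch that is handed to a single daughter cell when neural precursors divide (2L, 9437469 to 9464184, plus strand). Its only summit was the highest of the 14. At chr2L:9449323-9449847 it had a signal of 1689 and rank 78 in the IDR list, in the top 1.55%. Replicates 1, 2 and 3 gave 399, 645 and 659, at ranks 82, 66 and 83 of their own lists, a mean rank of 77 ± 9.54 (SD, n = 3). All 3 replicates therefore placed it among their 100 highest regions. The summit was 12116 bp from the gene start but 245 bp upstream of an internal start site that 2 of the 3 transcripts use. It had no Sox core within 100 bp, only the looser match printed above. That form was chosen after seeing the data, and it was at 31.8% of all IDR summits and 25.0% of the windows flanking the member summits.

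Su(H) encodes the DNA-binding protein that carries the Notch signal to target genes (2L, 15039488 to 15043334, plus strand), and H encodes Hairless, the adaptor that turns it into a repressor (3R, 20621938 to 20628915, plus strand). Neither had an IDR summit in its territory, which is 7.85 kb for Su(H) and 11.0 kb for H. The highest Su(H) region in the list of 3 replicates together peaked 26 bp from its start with a signal of 95 (rank 12483). It had 35 in replicate 1 and 35.2 in replicate 3 and no match in replicate 2. In the H territory the list of 3 together held no region, while replicates 2 and 3 each had 3, with highest signals of 40.5 and 43.6. The nearest IDR summits were 13521 bp from Su(H) and 5236 bp from H. The one near H was 581 bp from a start site of Pi3K92E.

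The gro gene encodes Groucho, a corepressor that H and the Enhancer of split proteins recruit (3R, 26041736 to 26049911, plus strand). It had the most IDR summits per 10 kb of the 9 genes, 2.46, but only 1 of its 3 was recovered in both replicates 2 and 3. Its highest summit, at chr3R:26042355-26042653, was in intron 1, 758 bp from the gene start and 147 bp upstream of an internal start site. It had a signal of 1055 and rank 288 (top 5.71%), with 324 in replicate 2 and 430 in replicate 3, and held 2 Sox cores. Another summit, 164 bp upstream of the start that 6 of the 10 transcripts use, had a signal of 233, with 86.0 and 81.6 in replicates 2 and 3. In replicate 3 it ranked 5675 and so was not recovered.

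The third gro summit shows how far the locus is shared. It lay 1809 bp upstream of gro but 313 bp from the start of E(spl)m8-HLH, a Notch target. Its signal was 194, with 81.7 in replicate 2 and 71.9 in replicate 3, where it ranked 6920 and so was not recovered. All 3 gro summits were in the territory of E(spl)m8-HLH as well. The one near E(spl)m8-HLH was also the only one of the 14 with a Su(H) core, written GTGGGAA or GTGAGAA on either strand, within 100 bp. Replicate 1 had no region in the gro territory, and its nearest was at least 3252 bp from each summit.

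In order of highest signal the bound members were numb, gro, N, neur and kuz. Among the highest summits of the 4239 bound genes, numb ranked 129 (top 3.04%), gro 431 (10.2%), N 615 (14.5%) and neur 1143 (27.0%). Replicates 2 and 3 both placed numb above gro, N above neur and neur above kuz. They split on gro and N: replicate 2 had 324 for gro and 334 for N, and replicate 3 had 430 for gro and 319 for N. The order of gro and N is therefore not held across the replicates. Replicate 1 cannot be used for any of these neighbouring pairs because it lacks a region for 1 gene of each. Of the bound members it does list, it placed numb highest at 399, then kuz at 81.1 and N at 23.4. It thus put kuz above N, against the order given here.

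**Figure D3:**
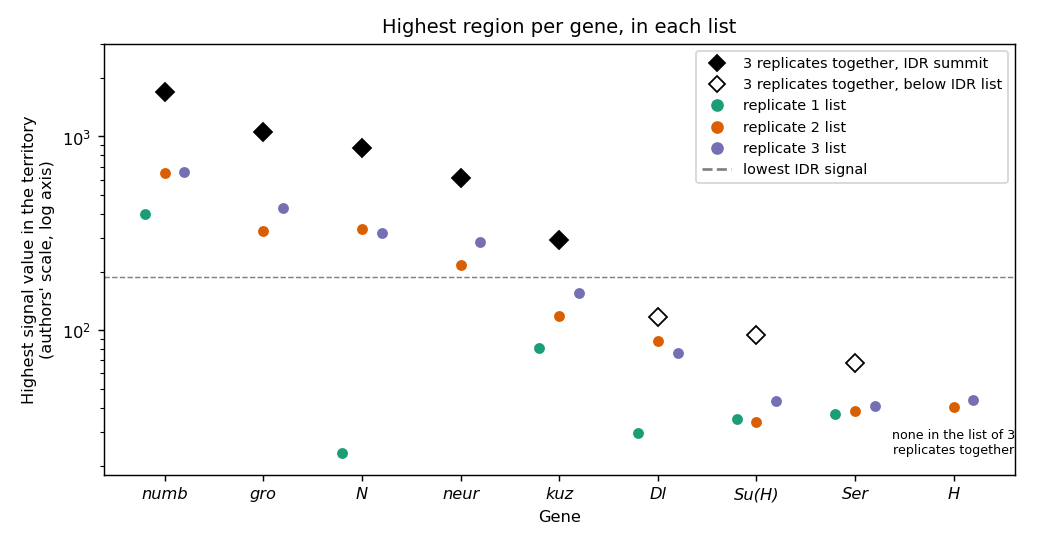
Highest signal value in each gene's territory, on a log y axis, in the list of the 3 replicates together (diamonds, filled where the region is an IDR summit) and in each replicate's own list (circles). The diamonds of the 5 bound members lie above the dashed line at 188, the lowest IDR signal, and the highest regions of Dl, Su(H) and Ser lie below it at 117, 95 and 68.1.

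The replicates differed at these genes, and at 11 of the 14 summits it was replicate 1 that had no match. Replicate 2 recovered 14, replicate 3 recovered 11 and replicate 1 recovered 3. Counting only summits recovered in both replicates 2 and 3, the 5 bound members stayed at 5, with 11 summits. The share of all genes bound under that rule is not given here. For 11 of the 14 member summits (78.6%) the whole list of replicate 1, of about 30000 regions, had no match, against 43.5% of all IDR summits. Recovery in both replicates 2 and 3 was 78.6% for the members and 74.9% for all IDR summits. Recovery in all 3 was 21.4% for the members (3 of 14) and 38.5% for all. By gene, 2 of the 9 members (kuz and numb) had a summit recovered in all 3, where 11.3% of all genes had one. That share is not matched for length, and the members are longer than most genes (median territory 26.2 kb, against 6.17 kb). The binding at N, neur and gro thus rests on replicates 2 and 3.

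**Figure D4:**
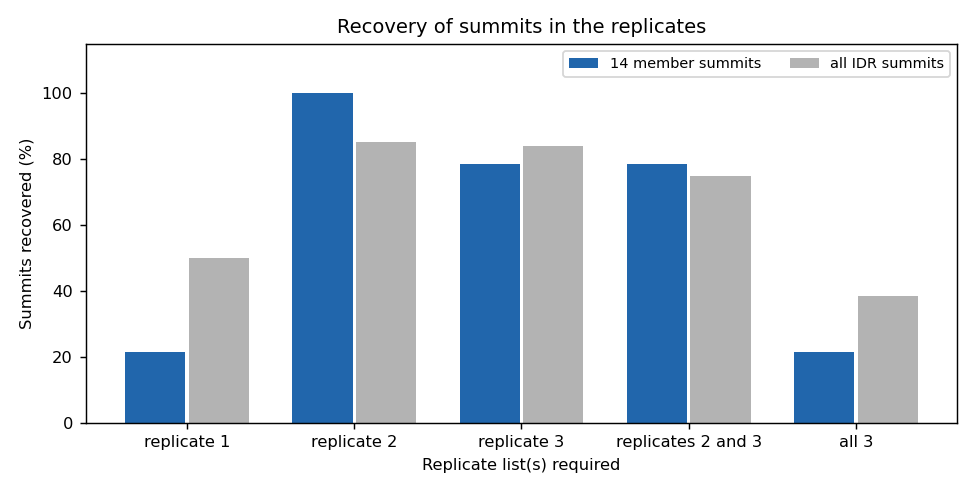
Percentage of the 14 member summits (blue) and of all 5047 IDR summits (grey) recovered in each replicate, in replicates 2 and 3 together, and in all 3. The lowest single-replicate bars are those of replicate 1, at 21.4% of the member summits and 50% of all.

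**Figure D5:**
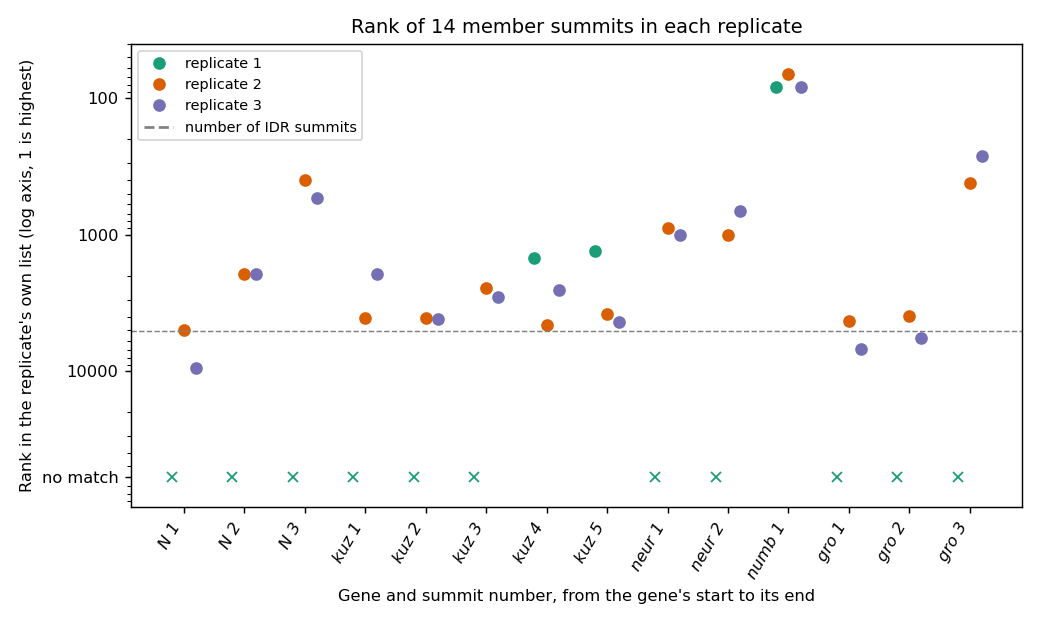
Rank of each of the 14 member summits in each replicate's own list, on a log y axis with rank 1 at the top, and crosses where replicate 1 had no match within 200 bp. The 3 numb points lie together at ranks 66 to 83, the summits of N, neur and gro and 3 of kuz have no replicate 1 point, and the dashed line is drawn at 5047.

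The member summits lay mostly in introns. Introns of any gene held 10 of the 14 (71.4%), against 51.6% of all IDR summits. Of these, 8 were inside the member's own gene, and 2 lay upstream of kuz in introns of its neighbour B4. Of the remaining 4, 2 were intergenic, 1 was in a 5' UTR and 1 in a 3' UTR, and none was in coding sequence. A start site of some gene was within 500 bp of 8 of the 14 (57.1%), against 34.8% of all IDR summits, and it was the member's own start for 5. The share of member summits near a start was 21.4% within 200 bp. It was 33.3% for the 3 summits left without replicate 2 or without replicate 3, where recovery in replicate 1 was required. Counted by gene, 4 of the 9 members (N, neur, numb and gro) had a summit within 500 bp of their own start, against 15.3% of all genes. At neur, numb and the highest gro summit this start was an internal one, used by only part of the transcripts. At N it was the summit of signal 193, which replicate 3 did not recover. The share of all genes is not matched for length or number of start sites. Of the 14 summits, 7 were in no other gene's territory, all of them inside the gene body, and the other 7 were shared.

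The Sox core was about as frequent at the member summits as in the IDR list and in flanking DNA. It was within 100 bp of 8 of the 14 (57.1%), against 52.1% of all IDR summits. The windows of the same 201 bp placed 1000 bp to each side of the member summits held it in 15 of 28 (53.6%). Of these windows, 4 overlap the window of another IDR summit, and without them it was 13 of 24 (54.2%). The longer form AACAAT was at 2 of the 14 (14.3%), against 25.7% of all, and ACAATG at 1 (7.14%), against 13.3%. The looser match stood at 3 (21.4%), against 31.8%. In the 28 flanking windows, AACAAT was at 32.1%, ACAATG at 7.14% and the looser match at 25.0%. With 14 summits these differences rest on few windows, and they were not tested. None of the 3 summits recovered in all 3 replicates held the core, while 8 of the other 11 did, and over the IDR list these shares were 50.9% and 52.9%.

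Other motifs were rare in the member windows. The GAGA-factor motif GAGAG was at 1 summit, that in intron 1 of N (7.14%), against 23% of all IDR summits. The Su(H) core was at 7.14% of member summits and 4.54% of all. The Zelda motif CAGGTAG and the DREF motif TATCGATA were at none of the 14, against 0.892% and 1.84% of all. The median GC content within 100 bp was 35.1% for the members and 34.3% for all.

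Of 23 other genes of the pathway, 13 were bound, against 30.4% of all genes. Their median territory was 10.7 kb, longer than the 6.17 kb of all genes. Of all genes with territories under 10 kb, 24.2% were bound, and of those with 10 to 20 kb, 46%. A summit recovered in all 3 replicates was found for 4 of the 23, against 11.3% of all genes. All 3 genes for the sugar modification of Notch were bound. Fringe (fng) had 5 summits, up to 577, of which 4 were recovered in all 3 replicates. The glucosyltransferase gene rumi reached 428. For ligand endocytosis, where neur belongs, shi (dynamin) reached 261 and the ligase gene mib1 reached 234, and lqf was unbound. Of 6 other genes for receptor cleavage, Kul (a metalloprotease) reached 1259 and aph-1 (a γ-secretase subunit) 837, and the other 4 were unbound. Trafficking and degradation had 3 of 7 bound, led by AP-2alpha at 553 and dx (Deltex) at 313. In transcription, 3 of 4 were bound. The coactivator gene mam had 9 summits, up to 930, and the corepressor gene CtBP reached 270, while Bx42 was unbound. The members had 5 of 9 bound, beside 13 of 23 here, and the median territory was 26.2 kb for the members and 10.7 kb for these genes.

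Among 15 target genes of the pathway, 9 were bound, against 30.4% of all genes and 24.2% of those with territories under 10 kb. Neighbouring E(spl) genes share summits, as the 3 of E(spl)m8-HLH are the 3 gro summits. In the E(spl) HLH family 5 of 7 were, led by E(spl)m7-HLH at 1497 and E(spl)m3-HLH at 1483, with E(spl)mgamma-HLH and E(spl)m5-HLH unbound. In the Bearded family 4 of 8 were, led by E(spl)m2-BFM at 888 and E(spl)malpha-BFM at 753.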

How the data were processed

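Per the labels, D-GFP was immunoprecipitated with anti-GFP from sonicated chromatin, and the size range is given as 200 to 800. Regions were called against a control for each of the 3 replicates and for all of them at once, and the IDR list derives from those lists, per the deposited file lists. Sources used here do not give the aligner, caller or threshold. Signal values (column 7 of the deposited lists) are the authors' own, their scale is not stated, and they were used to rank and describe regions. Read depth is unknown, so no interval could be given and no value is corrected for depth. Median signals were 28.2, 35.0 and 43.2 in the lists of replicates 1, 2 and 3.

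Summits were placed on dm6 with the Ensembl 115 annotation and the Release 6 sequence, on the 6 main arms. The dm3 lists were not used here. Motifs were counted on both strands within 100 bp of a summit (201 bp). No test was run, as the design has 1 group and shares are given beside those of all genes or all summits. The members, gene lists and rules were chosen with earlier results of these data known. All 9 members are named with every IDR summit. Of the other lists, the 2 genes of highest signal are named, and unbound genes where a list has at most 3. Alternatives covered territory, threshold, matching distance, motif and each replicate left out. Counting was tested on simulated data. The software was Python 3.11.15, numpy 2.4.6 and pandas 2.3.3 and, for figures, matplotlib 3.10.9.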

Additional observations from a re-analysis of the deposited data

How the results depend on the processing

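The 5 bound members became 2 (kuz and numb) when a summit had to be recovered in every replicate, 2 to 5 with a replicate left out, and 7 with 5 kb flanks or by nearest start site. The share of all genes bound is given only for the 2 kb rule (30.4%) and for recovery in every replicate (11.3%). With a replicate left out, a summit had to be recovered in both of the others. The 14 summits became 18 with 5 kb flanks, 12 by nearest start, 8 inside gene bodies, 6 in the upper 50% of the IDR list and 3 recovered in all 3, and 3 to 11 with a replicate left out. Recovery in all 3 (21.4%) was 37.5% inside gene bodies and 21.4% to 78.6% with a replicate left out, the highest without replicate 1. Over all IDR summits it was 38.5%. With a replicate left out it was 74.9% of all IDR summits without replicate 1, 41.8% without replicate 2 and 42.9% without replicate 3. The share within 500 bp of a start (57.1%) was 21.4% within 200 bp, 37.5% inside gene bodies, 33.3% for summits recovered in all 3 and 33.3% to 45.5% with a replicate left out. The Sox core share (57.1%) was 14.3% for AACAAT, 7.14% for ACAATG, 21.4% for the looser match (chosen after seeing the data), 0% for summits recovered in all 3 and 0% to 54.5% with a replicate left out. By nearest start site Dl had 1 summit, Ser 3 and kuz 1, and the highest of N was 311. With 5 kb on each side Dl and Ser had 1 each and gro 5. Without replicate 2 or 3 the rule still required replicate 1, which had no match at N, neur and gro. None of their summits was left, so no highest value could be given there. The causes were not tested. No paired analysis was possible because there is a single group. Depth is unknown, so a missing region in a replicate can also be one below its list, and all counts rest on 14 summits.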

Other observations

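Some regions near the members ranked among the 5047 highest of a replicate's own list and lay over 200 bp from any IDR summit. At the start of kuz itself, replicate 2 had a region 130 bp away with a signal of 91.4 (rank 3626) and replicate 3 one 138 bp away with 111 (rank 3427), while the list of 3 together gave 138 there. In N, replicate 2 had 98.8 at 667 bp from the highest N summit (rank 3214), and replicate 3 had 97.1 in an intron 17695 bp from the start (rank 4303). Replicate 1 had 42.4 in an intron of kuz (rank 3909) and 41.2 in an intron of numb, 1300 bp from its start (rank 4246). Near neur, replicate 3 had 92.8 at 61 bp from a start site of the neighbouring gene tgo (rank 4627). At Dl, replicate 2 had the region at the start site described above, with 88.2 (rank 3819). Only the region at the kuz start was shared by 2 replicates at this level.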
